A study of Mus musculus with 6 samples.

Results

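The 10 genes described here encode factors that select maternal mRNAs for decay, shorten their poly(A) tails or help to remove their caps. They are Btg4, Pabpn1l, Cnot7, Cnot8, Cnot6l, Cnot6, Cnot1, Ythdf2, Zfp36l2 and Dcp1a. They were looked up by symbol, and all 10 were found among the 25631 genes of the deposited expression table. RNA was sequenced from oocytes of 14-month-old ICR mice that were injected with eCG (equine chorionic gonadotropin) and whose large antral follicles were then punctured. The 3 control libraries, labelled aged and untreated, came from mice given water. The 3 aminophylline libraries came from aged mice that drank 4.0 mM aminophylline, an inhibitor of phosphodiesterases, for 1 week and then water for 3 weeks. The number of mice and oocytes in each library is not given in the sources used here, so p-values measure only the spread between these libraries, which may be technical.

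A growing oocyte stores mRNA, and most of this store is removed between the resumption of meiosis and activation of the embryonic genome. BTG4 is the meiotic adaptor that brings mRNAs to the CCR4-NOT deadenylase, and PABPN1L is an oocyte poly(A)-binding protein that partners BTG4. In CCR4-NOT, CNOT1 is the scaffold, CNOT7 and CNOT8 are alternative catalytic subunits of the CAF1 type, and CNOT6 and CNOT6L are alternative catalytic subunits of the CCR4 type. ZFP36L2 binds AU-rich elements and YTHDF2 binds N6-methyladenosine, and both bring their targets to the deadenylase. DCP1A is a cofactor of the decapping enzyme that acts after the tail is lost. Messages of this machinery can themselves be held dormant with short tails until maturation, through the cytoplasmic polyadenylation element (CPE) near the 3′ end.

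The 3′ ends are shown because the CPE and the poly(A) tail lie there. The last 100 bases of 1 GENCODE M21 transcript per gene (GRCm38) were searched on the transcript strand for the CPE letters TTTTAT or TTTTAAT and for the polyadenylation hexamer AATAAA or ATTAAA. Of 9 members with a 3′ UTR long enough to be searched, 4 held the CPE letters (Btg4, Cnot1, Cnot7 and Dcp1a) and 6 held a hexamer. Among all 19924 transcript ends searched, the shares were 17.8% and 78.3%. Capitals mark a CPE match in the first 4 windows, with the hexamer of Cnot7 also in capitals, and the hexamer in the fifth, where no CPE letters were found in the last 100 bases.
Btg4, chr9:51119803-51119832, plus strand: atccctTTTTATgtctttttaaaagtttga
Cnot1, chr8:95719498-95719527, minus strand: tattgaTTTTATatatgtgagtacactgat
Cnot7, chr8:40493036-40493065, minus strand: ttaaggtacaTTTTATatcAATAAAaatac
Dcp1a, chr14:30527015-30527044, plus strand: atatttTTTTAATaaaatttcaaaaccaag
Pabpn1l, chr8:122619471-122619500, minus strand: aatgtaaattATTAAActtgaatatatttt
The CPE match of Dcp1a overlaps a hexamer. In Btg4 and Cnot1 no hexamer was found in the last 100 bases. These matches describe the annotated ends, and which 3′ ends the oocytes used was not measured.

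Levels are given as FPKM, fragment counts scaled to transcript length and to library size. Whole reads were recovered from the FPKM steps, and the libraries held between 14112341 (control 2) and 33641283 (control 1) reads. All 12 oocyte markers examined passed the filter, with a summed level of 20103 to 27678 FPKM in the control and 21337 to 25004 FPKM in the aminophylline libraries. Control 1 stood apart, since 9 of 10 macrophage markers were highest there and these 9 summed to 97.4 FPKM, against 1.18 to 2.11 FPKM in the other 5 libraries. The tenth, the complement gene C1qb, was lowest in control 1 (72.3 FPKM, against 79.2 to 99.8 FPKM elsewhere), and it made up nearly all of the 10-marker sum of 81.0 to 101 FPKM in the other 5 libraries (170 FPKM in control 1). Lyz2, a macrophage lysozyme, measured 66.4 FPKM in control 1 and at most 0.573 FPKM elsewhere, and C1qc measured 14.8 FPKM there and was listed at 0 elsewhere. The 12 granulosa markers summed to between 18.2 and 26.7 FPKM, the theca and stroma markers to at most 1.6 FPKM, the endothelial markers to at most 8.89 FPKM and the erythrocyte markers to at most 0.585 FPKM. Of these lists, 4 granulosa, 2 macrophage and 2 endothelial markers passed the filter, and no theca or erythrocyte marker did. In such bulk libraries, fewer contributing cells and less RNA per cell cannot be told apart.

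The deadenylation adaptor and its poly(A)-binding partner had by far the highest levels of the 10 genes. Whether the libraries were poly(A)-selected is not given in the sources used here, and under such selection a level would depend on tail length as well as on the number of transcripts. Averaged over the 6 libraries, Btg4 measured 1187 FPKM and ranked 52 among all genes, and Pabpn1l measured 753 FPKM and ranked 109. The catalytic CAF1-type subunits and Dcp1a lay between 29.2 and 84.2 FPKM, while the scaffold Cnot1 and the CCR4-type Cnot6 lay below 7 FPKM in every library. The groups were compared over the 10340 genes that reached 1 FPKM in 3 or more libraries, on the log2(FPKM + 1) scale. Of the 9 members that passed this filter, 0 had a Benjamini-Hochberg adjusted p under 0.05 in limma, as did 0% of all tested genes, and 1 had an unadjusted p under 0.05 (Pabpn1l, lower). The background share of all genes past the unadjusted threshold was 7.25% in either direction, 4.41% in the higher and 2.84% in the lower direction. With the replicate number as a block, 1 member (again Pabpn1l, lower) passed the unadjusted threshold, against a background of 14.2% in either direction, 9.88% higher and 4.3% lower.

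**Figure D1:**
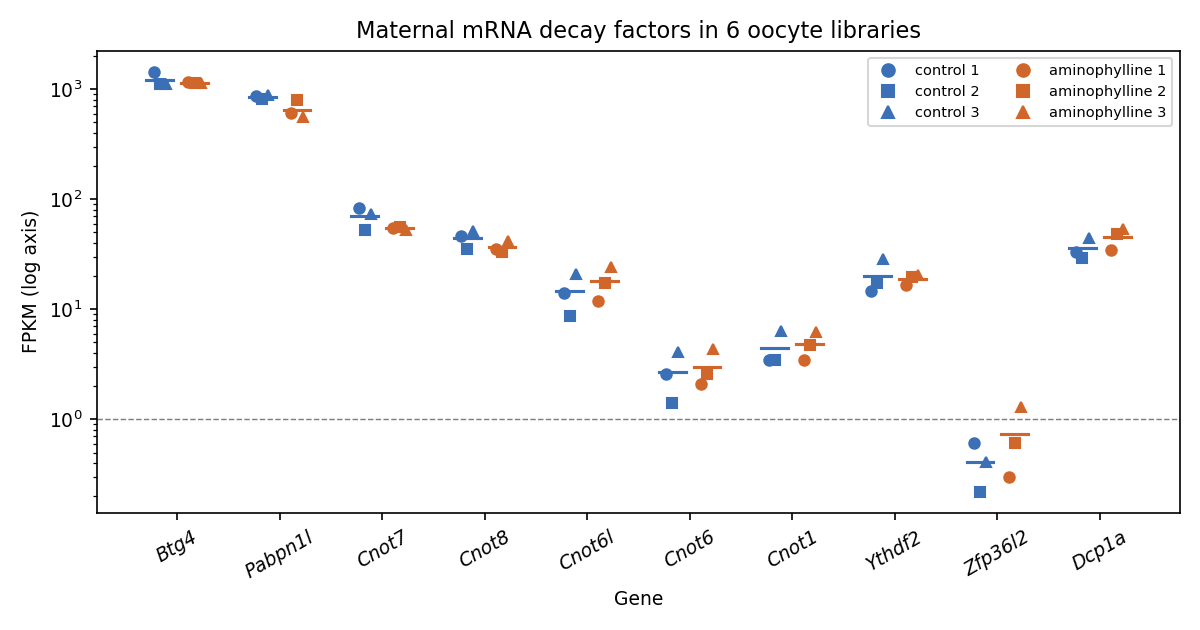
FPKM of the 10 genes (log axis) in each control (blue) and aminophylline (orange) library, with the group mean as a line and an FPKM of 1 as a dashed line. Btg4 and Pabpn1l lie at or above 560 FPKM in every library, Zfp36l2 passes 1 FPKM in 1 library, and Pabpn1l is the gene whose groups are separate.

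Btg4 lies at chr9:51060901-51119875 on the plus strand of GRCm38. It measured 1443, 1110 and 1126 FPKM in control libraries 1 to 3 and 1164, 1132 and 1147 FPKM in aminophylline libraries 1 to 3. Control 1 was the highest library, the other 5 lay within a narrow band, and the groups overlapped. Between the groups the log2 fold change was -0.09 (SE 0.157, 95% interval -0.43 to 0.26), with an adjusted p of 0.894 in limma. Without control 1, the library with the macrophage markers, it was 0.04. Between aminophylline libraries the coefficient of variation of Btg4 was 1.42%, against 15.3% between control libraries. Its reads made up 0.394% to 0.512% of each library.

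Pabpn1l (chr8:122619471-122622739, minus strand) measured 863, 813 and 881 FPKM in the control libraries and 610, 793 and 560 FPKM in the aminophylline libraries. Every aminophylline value lay below every control value, with aminophylline 2 close to control 2. Groups without overlap, in either direction, were found for 12.5% of all tested genes, with 7.51% in the higher and 4.96% in the lower direction. The mean was 852 ± 35.0 FPKM in control and 655 ± 123 FPKM in aminophylline oocytes (SD, n = 3 each), a difference of -23.2%. The log2 fold change was -0.40 (SE 0.166, 95% interval -0.76 to -0.03), with an unadjusted p of 0.0364 and an adjusted p of 0.682 in limma. The unadjusted p in limma was 0.07 without control 1, 0.0637 without control 3, 0.128 without aminophylline 1 and 0.183 without aminophylline 3, and the log2 fold change stayed between -0.54 and -0.29 in the 6 fits that each left out a library. The unadjusted p in limma was also 0.0618 after median centring, 0.0629 in an unmoderated model and 0.151 with library weights. After rescaling to a common sum or quantile normalization the groups overlapped, with an unadjusted p of 0.0173 and 0.0158 in limma. Of the 19 fits, including length corrections chosen after the data were seen, 12 gave Pabpn1l an unadjusted p under 0.05.

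The nuclear poly(A)-binding paralog, Pabpn1, was at most 2 reads in any library, so the cytoplasmic oocyte form Pabpn1l was by far the more abundant of this pair in the table. Pabpn1 shares 21.4% of its annotated exon bases with Gm20521 on the same strand, and reads from such shared exons cannot be assigned to either gene from the table.

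The CAF1-type catalytic subunits had lower means in the aminophylline group, without passing either threshold. Cnot7 (chr8:40492540-40515847, minus strand) measured 84.2, 52.2 and 73.4 FPKM in the control and 55.3, 55.7 and 52.5 FPKM in the aminophylline libraries. Control 1 and control 3 lay above all aminophylline libraries, but control 2 was the lowest of the 6. The mean was 70.0 ± 16.3 FPKM in control and 54.5 ± 1.73 FPKM in aminophylline oocytes, and the log2 fold change was -0.33 (SE 0.192, adjusted p = 0.722 in limma). Leaving out control 2 gave -0.52, with an unadjusted p of 0.00577 and an adjusted p of 0.147 in limma, whereas leaving out control 1 gave -0.18.

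Cnot8 (chr11:58104153-58118594, plus strand) measured 46.0, 35.5 and 51.7 FPKM in the control and 35.5, 33.0 and 41.5 FPKM in the aminophylline libraries. The groups overlapped, again because control 2 lay among the aminophylline values. Its log2 fold change was -0.26 (SE 0.189, 95% interval -0.68 to 0.16, adjusted p = 0.739 in limma). Without control 2 it was -0.41, with an unadjusted p of 0.036 and an adjusted p of 0.281 in limma, whereas it was -0.14 without control 3, with an unadjusted p of 0.481. Cnot7 exceeded Cnot8 in all 6 libraries, by 1.27 to 1.83 times.

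The CCR4-type catalytic subunits varied more between libraries than between groups. Cnot6l (chr5:96070333-96164171, minus strand) measured 14.2, 8.74 and 21.0 FPKM in the control and 11.9, 17.5 and 24.4 FPKM in the aminophylline libraries. Library 3 was the highest of both groups, and the log2 fold change was 0.30 (SE 0.318, 95% interval -0.40 to 1.0, adjusted p = 0.803 in limma). It was -0.01 without control 2, 0.06 without aminophylline 3, 0.58 without control 3 and 0.55 without aminophylline 1.

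Cnot6 (chr11:49671503-49712723, minus strand) was less abundant, with 2.58, 1.40 and 4.14 FPKM in the control and 2.08, 2.58 and 4.38 FPKM in the aminophylline libraries. It had the same order of libraries as Cnot6l in each group. The log2 fold change was 0.14 (SE 0.309, adjusted p = 0.914 in limma), and it was -0.14 without control 2 and -0.09 without aminophylline 3. Cnot6l exceeded Cnot6 by 5.09 to 6.81 times within a library, a range far narrower than that of either gene.

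The scaffold Cnot1 (chr8:95719451-95807464, minus strand) measured 3.45, 3.43 and 6.39 FPKM in the control and 3.49, 4.78 and 6.26 FPKM in the aminophylline libraries. As for Cnot6l and Cnot6, library 3 was the highest of each group and the groups overlapped. Its log2 fold change was 0.12 (SE 0.276, 95% interval -0.48 to 0.73, adjusted p = 0.917 in limma). It turned to -0.05 without aminophylline 3.

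**Figure D2:**
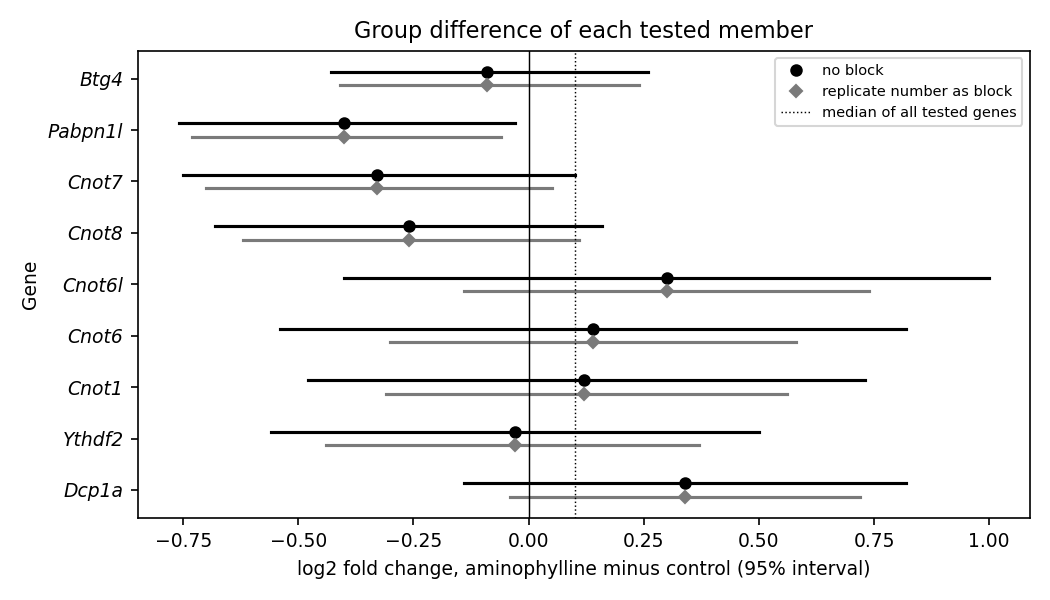
The log2 fold change (aminophylline minus control) of the 9 tested members with its 95% interval from limma, without a block (black) and with the replicate number as a block (grey), beside the median of all tested genes at 0.10 (dotted). The intervals of Pabpn1l lie below 0 and those of the other 8 genes include 0.

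Of the RNA-binding factors that select targets, Ythdf2 was readily measured and Zfp36l2 was scarce. Ythdf2 (chr4:132184912-132212303, minus strand) measured 14.7, 17.5 and 28.5 FPKM in the control and 16.7, 19.8 and 20.7 FPKM in the aminophylline libraries. The control libraries included both the lowest and the highest value. The log2 fold change was -0.03 (SE 0.241, 95% interval -0.56 to 0.50, adjusted p = 0.978 in limma), and without control 3 it was 0.23.

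Zfp36l2 (chr17:84183931-84187947, minus strand) measured 0.614, 0.220 and 0.409 FPKM in the control and 0.30, 0.605 and 1.29 FPKM in the aminophylline libraries. These values rest on 73, 11 and 46 reads and on 30, 53 and 140 reads. Only aminophylline 3 exceeded 1 FPKM, so the gene did not pass the filter. In the limma fit without a filter the log2 fold change was 0.26 (SE 0.236, adjusted p = 0.836). Its relative Zfp36l1 was nearly absent, with at most 8 reads in any library.

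Dcp1a (chr14:30479535-30527063, plus strand) was higher on average in the aminophylline group, without passing either threshold. It measured 33.3, 29.2 and 44.9 FPKM in the control and 34.8, 48.9 and 53.2 FPKM in the aminophylline libraries. Aminophylline 2 and 3 lay above all control libraries and aminophylline 1 did not. On the log2 scale the groups differed by 0.34 (SE 0.218, 95% interval -0.14 to 0.82, adjusted p = 0.728 in limma). Without control 3 it was 0.51, with an unadjusted p of 0.0355 and an adjusted p of 0.332 in limma, and without aminophylline 1 it was 0.52 (0.0499 and 0.704). It was 0.21 without control 2 (unadjusted p = 0.357 in limma) and 0.22 without aminophylline 3 (unadjusted p = 0.393 in limma).

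Across the 9 tested members the median log2 fold change was -0.03, against 0.10 over all tested genes, with 4 members above 0 and 5 below. The mean levels ran in the order Btg4, Pabpn1l, Cnot7, Dcp1a, Cnot8, Ythdf2, Cnot6l, Cnot1, Cnot6 and Zfp36l2. Neighbours differed in the same direction in all 6 libraries except for Cnot7 and Dcp1a (5 of 6), Dcp1a and Cnot8 (2 of 6) and Ythdf2 and Cnot6l (5 of 6), and the ranges of these 3 pairs overlapped. Cnot1 exceeded Cnot6 in every library, although their ranges overlapped. Pabpn1l exceeded Cnot7 by 10.2 to 15.6 times, the widest gap in the order. Levels between genes depend on the transcript length that the authors divided by. This length was inferred as the smallest that gave whole reads in every library. For Btg4, Cnot8 and Cnot7 it was 2.39, 1.96 and 1.67 times that of the longest protein-coding GENCODE transcript. For the other 7 genes it was between 0.988 and 1.14 times.

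The members were not high and low in the same libraries. The 4 longest genes, Dcp1a, Cnot6, Cnot1 and Cnot6l, each exceeded their own mean in control 3 and aminophylline 3. They lay below it in control 1, control 2 and aminophylline 1. The shorter Ythdf2 (4078 bases) had the same pattern, although Cnot8 (4118 bases) and Cnot7 (4978 bases) are longer than Ythdf2. Cnot8 was above its mean in control 3 and aminophylline 3 but also in control 1, and Cnot7 was below its mean in aminophylline 3. Control 3 and aminophylline 3 were also the highest, and control 2 the lowest, over the 2374 tested genes of at least 5000 bases, whose median deviation from the 6-library mean was -0.24 log2 units in control 2, 0.23 in control 3 and 0.22 in aminophylline 3. Pabpn1l, the shortest member at 1144 bases, had its lowest value in aminophylline 3. Its deviations were 0.216 in control 1, 0.246 in control 3, -0.282 in aminophylline 1 and -0.407 in aminophylline 3. For the 3684 tested genes under 2000 bases, the medians in these libraries were -0.10, -0.12, 0.09 and 0.0. In control 2 and aminophylline 2, both Pabpn1l and these short genes were above 0. Over all tested genes control 2 was again the lowest library and control 3 the highest, over a narrower range, with medians of -0.11 in control 2, 0.11 in control 3 and 0.08 in aminophylline 3. In a fit that removed a length trend from each library, chosen after the data were seen, Pabpn1l had a log2 fold change of -0.50 with an adjusted p of 0.368 in limma, and Dcp1a one of 0.25 with an adjusted p of 0.641.

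**Figure D3:**
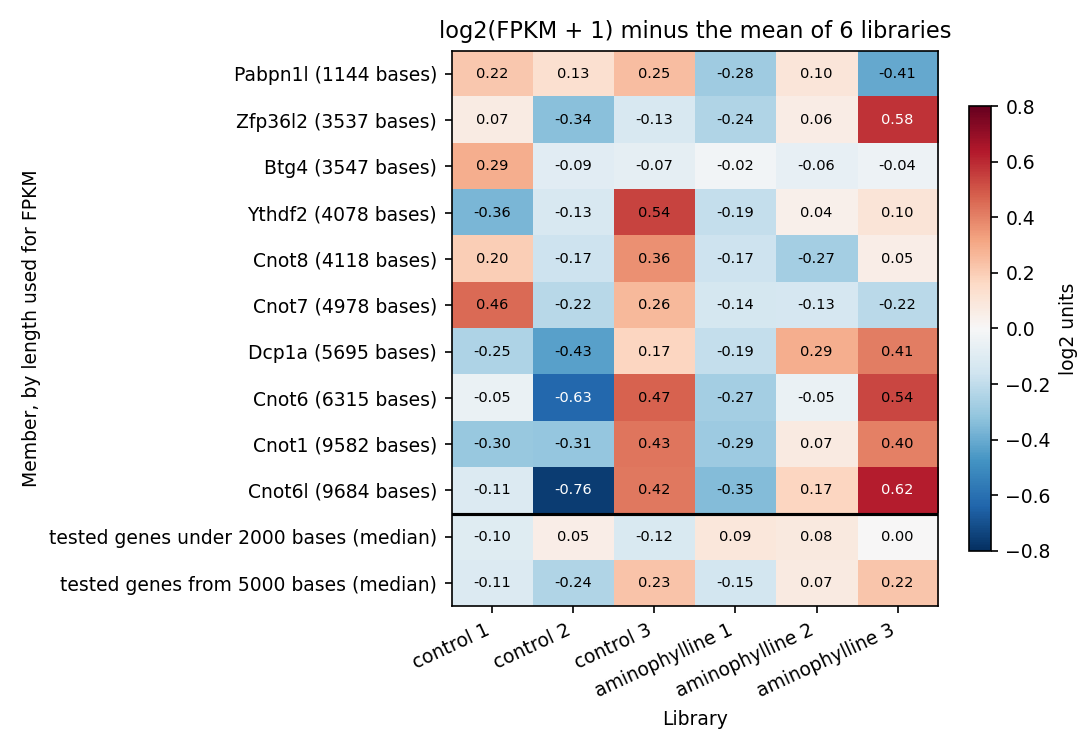
Deviation of log2(FPKM + 1) from the mean of the 6 libraries, in log2 units, for the 10 genes ordered by the length used for FPKM, and the median deviation of short and long tested genes in the lowest rows. The 4 longest members are above their mean in control 3 and aminophylline 3, as are the tested genes from 5000 bases. The shorter Ythdf2 and Cnot8 are above their mean there too.

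Ratios between decay factors within a library do not depend on the scaling of libraries. Of 7 ratios planned, 5 were computed, because Zfp36l1 and Pabpn1 had 3 reads or fewer in at least 1 library. The groups overlapped in all 5 ratios. The ratio of Cnot7 plus Cnot8 to Cnot1 sets mRNA of catalytic subunits against mRNA of the scaffold. It does not give the make-up of the protein complex, and its size depends on the lengths used for FPKM. This ratio was 37.8, 25.6 and 19.6 in control and 26.0, 18.6 and 15 in aminophylline oocytes. The group difference was -0.46 on the log2 scale, with an exact permutation p of 0.3 (two-sided, adjusted p = 1, smallest possible p = 0.1), and it was -0.21 without control 1 and -0.68 without control 3. Between libraries of the same number it was lower in the aminophylline group in 3 of 3 pairs (-0.54, -0.46 and -0.38 on the log2 scale), with an exact sign-flip permutation p of 0.25, the smallest that 3 pairs allow. In each group it was highest in library 1 and lowest in library 3.

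For Cnot7 to Cnot8 the group difference was -0.07 on the log2 scale and for Cnot6l to Cnot6 it was 0.10. The latter ratio was higher in the aminophylline library in 3 of 3 pairs, by 0.05, 0.13 and 0.13, with a paired exact permutation p of 0.25. Dcp1a exceeded its paralog Dcp1b, which had 28 to 75 reads per library, by 56.1 to 108 times, with a group difference of -0.01. Ythdf2 exceeded Ythdf3, another reader of N6-methyladenosine, in all 6 libraries, with a ratio of 3.77 in control 2 and between 1.37 and 2.25 in the other 5. That group difference was -0.22. The exact permutation p-values of these 4 differences lay between 0.4 and 1, and each was 1 after adjustment over the 5 ratios.

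**Figure D4:**
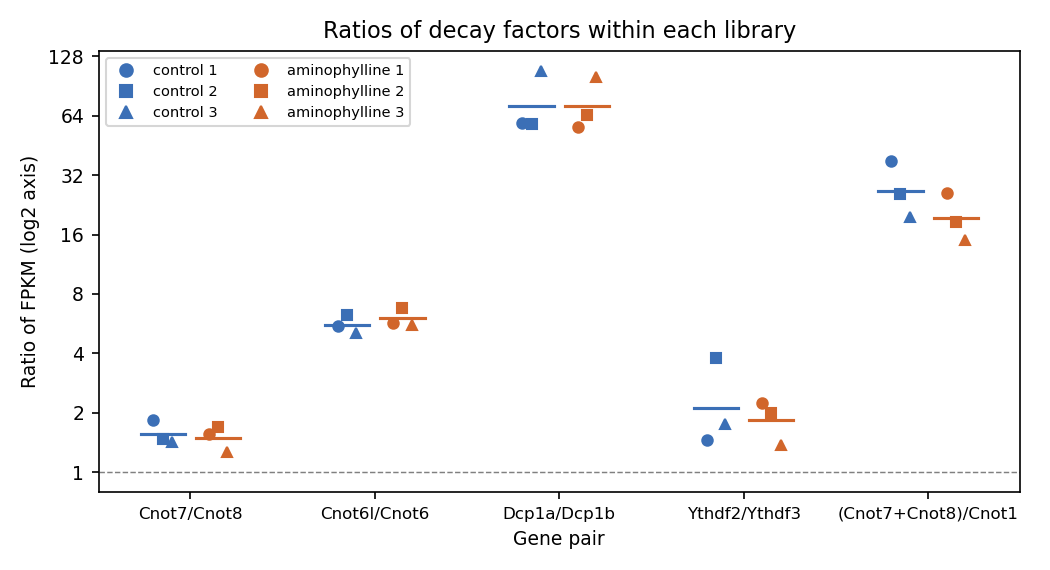
Ratio of FPKM between decay factors in each library (log2 axis), with the geometric mean of each group as a line. The control and aminophylline libraries overlap in all 5 ratios, and Cnot6l to Cnot6 spans only 5.09 to 6.81.

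The rest of the decay machinery was examined in 8 lists of 86 genes outside the members, of which 84 were in the table and 71 passed the filter. In limma, 2 of the 71 were higher at an unadjusted p under 0.05 (2.82%, against 4.41% of all tested genes) and none was lower, while 0 had an adjusted p under 0.05. With the replicate number as a block, 7 were higher at an unadjusted p under 0.05 (9.86%, against 9.88% of all tested genes) and 0 passed adjustment, as did 0.455% of all tested genes. The median log2 fold change of the 71 genes was 0.14, against 0.10 over all tested genes, and 51 were above 0. Since the median over all tested genes was itself above 0, most tested genes were also above 0. That overall median was 0.01 after median centring or quantile normalization, so counts above 0 depend on the scaling.

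Lsm5, a subunit of the LSM ring that binds deadenylated mRNAs before decapping, measured 306, 285 and 323 FPKM in the control and 373, 386 and 427 FPKM in the aminophylline libraries. All aminophylline values were above all control values. The groups differed by 0.37 on the log2 scale (SE 0.145), with an unadjusted p of 0.0263 and an adjusted p of 0.682 in limma. Exosc4, a core subunit of the RNA exosome that degrades RNA from the 3′ end, measured 37.3, 47.7 and 36.6 FPKM in the control and 62.0, 51.9 and 48.5 FPKM in the aminophylline libraries. Its groups also did not overlap, though control 2 lay just under aminophylline 3, and its log2 fold change was 0.41 (SE 0.179, unadjusted p = 0.0426, adjusted p = 0.682 in limma).

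By list, 12 of 17 decapping and 5′ decay genes were tested and had a median log2 fold change of 0.19, with 11 above 0. The median over all tested genes was 0.10. All 11 further CCR4-NOT subunits and BTG/TOB adaptors were tested, with a median of 0.03. Without a block none passed the unadjusted threshold, against 7.25% of all tested genes. With the replicate block 1 passed it, higher (9.09%, against 9.88% of all tested genes). The medians were 0.14 for 15 exosome genes and helpers, 0.12 for 7 other deadenylases, 0.20 for 13 RNA-binding regulators, 0.37 for 3 poly(A)-binding proteins and -0.05 for 9 genes of N6-methyladenosine addition and removal. Tut7, a terminal uridylyltransferase and the only tested gene of its list, was 3.44 ± 0.299 FPKM in control and 2.74 ± 0.161 FPKM in aminophylline oocytes (SD, n = 3 each). Its groups did not overlap, and its log2 fold change was -0.25 with an adjusted p of 0.761 in limma. Groups without overlap were seen for 7 of the 71 genes (9.86%, against 12.5% of all tested genes), 5 higher (Lsm5, Exosc4, Lsm4, Lsm6 and Fto) and 2 lower (Tut7 and Exosc9). Tut7, Lsm4, Lsm6, Fto and Exosc9 were chosen after their values were seen, and none of these 5 passed the unadjusted threshold.

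**Figure D5:**
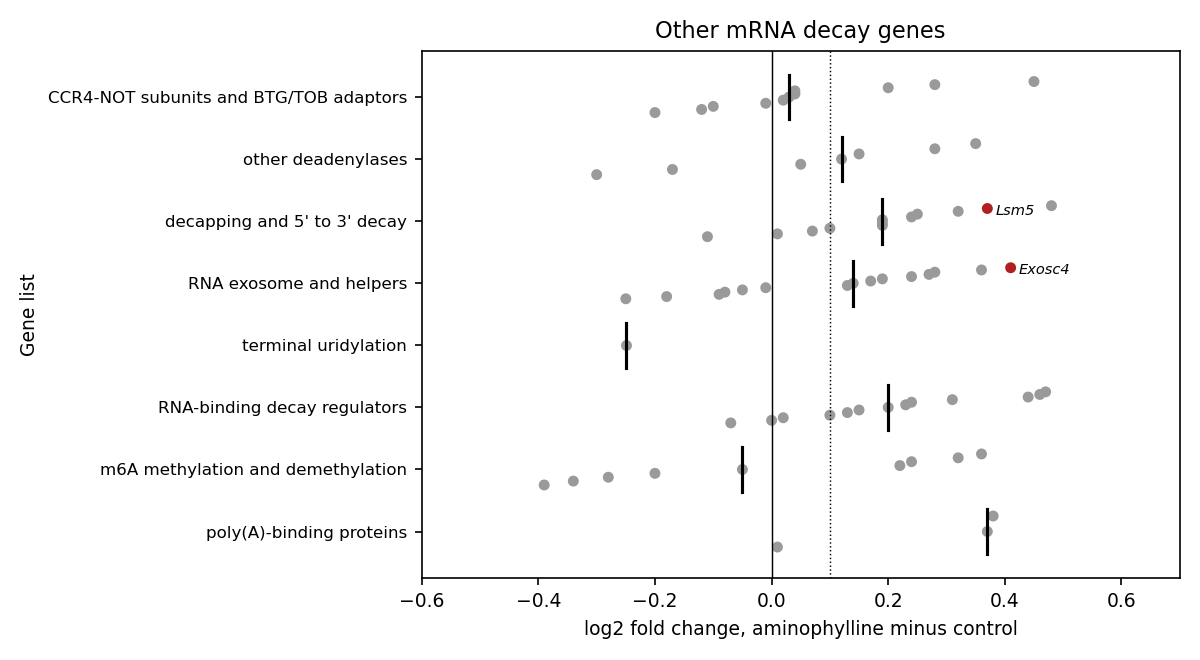
The log2 fold change (aminophylline minus control) of each tested gene of the 8 decay lists, with the median of each list (bar) and of all tested genes (dotted) and with unadjusted p under 0.05 in red. The decapping list has 11 of 12 genes above 0, and the list of N6-methyladenosine genes has 4 of 9. The median of all tested genes, 0.10, is also above 0.

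The 5 tested genes whose pattern was most like that of Btg4 over the 6 libraries, by Pearson correlation of log2(FPKM + 1), were Calm2 (0.993), Fam71d (0.991), EU599041 (0.989), Gm11100 (0.984) and CYTB (0.981). In each of them, as in Btg4, control 1 was the highest library. Calm2, a calmodulin gene, measured 1929 FPKM in control 1 and between 1235 and 1341 FPKM in the other 5 libraries. The mitochondrial gene CYTB measured 1649 FPKM in control 1 and 808 to 897 FPKM elsewhere. The likeness is a description over 6 libraries and rests on control 1.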

How the data were processed

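RNA was total RNA extracted with TRIzol and made into libraries with the VAHTS Universal V6 RNA-seq kit. FPKM values per gene were deposited by the authors. The build is GRCm38 (mm10) per the labels, and the aligner, counter and annotation are not given in the sources used here, nor is the use of strand or of poly(A) selection. The FPKM sums of the libraries ranged from 510206 to 587775.

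Whole reads were recovered for 22581 of 22583 genes above 0 in at least 2 libraries (99.991%, within 0.0001 reads), and 99.565% to 99.627% of each total lay on the listed genes. At these depths the counting coefficient of variation of the 9 tested members was at most 8.94%, and that of Zfp36l2 was at most 30.2%. Counting errors cover sampling of reads only.

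Group differences were tested with limma 3.58.1 in R 4.3.3 (moderated variance with a trend, two-sided) on log2(FPKM + 1) for all genes that reached 1 FPKM in 3 or more libraries, so that fold changes of low genes are understated. P-values were adjusted over all 10340 genes tested. The fit was tested on simulated data, but only with changes far larger than those of the members. That simulation does not show how the fit performs for small differences. Ratios were compared by exact permutation with scipy 1.17.1 (Python 3.11.15). Groups came from the labels. The members and lists were chosen with earlier results of these data known. Named genes were the members, their paralogs, up to 3 genes per list with the smallest unadjusted p under 0.05, and the 5 genes most like Btg4, to which 5 list genes were added after their values were seen.

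The numbers 1 to 3 in the labels were taken to pair the libraries, because deviations from the group means correlated over the tested genes for each number (0.138, 0.14 and 0.552). Control 2 correlated better with aminophylline 1 (0.423), and no source says what a number shares. Exons of Cnot1, Cnot7 and Zfp36l2 overlap a gene on the opposite strand over 0.769%, 4.24% and 2.97% of their bases. Alternatives were another pseudocount, other filters and scalings, the replicate block, library weights, an unmoderated model, voom on recovered reads and each library left out.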

Additional observations from a re-analysis of the deposited data

How the results depend on the processing

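No member passed an adjusted p of 0.05 in limma in any of the 19 fits. The count of members with an unadjusted p under 0.05, 1 as reported, was 0 with median centring and with an unmoderated model, 2 with library weights (Cnot7, lower, and Dcp1a, higher, but not Pabpn1l), 3 with the length correction and replicate block together (Pabpn1l, Cnot7 and Cnot8, chosen after the data were seen), and 0 to 3 when a library was left out. It was 3 without control 2 (again Pabpn1l, Cnot7 and Cnot8) and 0 without control 1 or aminophylline 3. Without control 3 or aminophylline 1 the count stayed at 1, but the gene was Dcp1a, higher, in place of Pabpn1l. With the replicate block alone the count was 1, and the pairing changed no member's call (Pabpn1l in limma, unadjusted p = 0.0235 and adjusted p = 0.273). Members without overlap, 1 as reported, numbered 0 after rescaling to a common sum or quantile normalization, 3 after median centring, and 1 to 3 when a library was left out, while model choices do not apply to this count. The share over all tested genes (12.5%) is given only for the values as reported, so these other counts have no background beside them. When a library is left out, fewer values are compared and groups separate more easily, so a higher count there is not a result about the members. Genes of the decay lists past the unadjusted threshold, 2 as reported, numbered 0 after rescaling to a common sum and after median centring, 1 after quantile normalization, 7 with the replicate block, 10 with library weights, 5 with length correction and block, and 0 to 9 with a library left out (0 without aminophylline 2, 9 without control 2 or control 3, 1 without control 1 or aminophylline 3).

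The direction of Ythdf2 turned with library weights (0.13). Leaving out 1 library gave ranges of log2 fold change that crossed 0 for Btg4 (-0.15 to 0.04), Cnot1 (-0.05 to 0.37), Cnot6 (-0.14 to 0.41), Cnot6l (-0.01 to 0.58) and Ythdf2 (-0.22 to 0.23). It also did so for the log2 ratios of Cnot7 to Cnot8 (-0.15 to 0.05), Dcp1a to Dcp1b (-0.25 to 0.29) and Ythdf2 to Ythdf3 (-0.49 to 0.19). The ratio of Cnot7 plus Cnot8 to Cnot1 ranged from -0.68 to -0.21, Cnot7 from -0.52 to -0.18, Cnot8 from -0.41 to -0.14 and Dcp1a from 0.21 to 0.52. Pabpn1l stayed below 0 throughout, with an adjusted p between 0.213 and 0.999. Its unadjusted p in limma was under 0.05 in 12 of the 19 fits, and was lowest (0.00708) with the length correction. It was 0.0618 with median centring, 0.0629 with the unmoderated model and 0.151 with library weights.

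Over all genes, 750 passed an unadjusted p of 0.05, 1404 without a filter and 761 with voom on recovered reads (0 after adjustment). Of these, 60.8% were higher as reported, 49.0% after rescaling, 39.7% after quantile normalization, 35.9% after median centring and 40.7% after length correction. The cause of these shifts was not tested. Differences of the ratios within pairs, added after the data were seen, gave exact permutation p-values of 0.25 to 1. Ratios with Zfp36l1 or Pabpn1 were not run.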
